A study of Bos taurus with 12 samples.

Results

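The genes described here are those of protein-building supply: the aminoacyl-tRNA synthetases, enzymes that make serine, one-carbon units, proline, alanine, aspartate and cystathionine, and a small group of amino acid stress genes. Members were chosen by name from the platform annotation, as 27 listed genes plus the genes whose symbol is an amino acid letter followed by ARS, with or without a final digit. The pattern did not take the letters E, F and P, so FARS2, the mitochondrial phenylalanyl enzyme, is no member and is given only for comparison. Of the 27 listed genes, 23 had a named probe set, and the name pattern added 25 more. This gave 48 genes with 67 probe sets, of 9155 named genes and 24016 probe sets tested. ASNS, FARSA, FARSB and CTH had no named probe set and were not analysed here. The rule read names and no measured value, but it was chosen with earlier results of these data known. Each gene was represented by its probe set with the highest mean over all arrays.

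Chromaffin cells secrete catecholamines from the adrenal medulla. Cultured bovine chromaffin cells from adrenal glands received IL6 at 10 nM for 24 h, human IFNα at 1 nM for 24 h, histamine at 10 µM for 6 h, or no treatment. Each of these 4 groups had 3 arrays, numbered as repeats 1, 2 and 3. By the study's design these repeats are technical, so every p-value below measures the spread between such arrays and not that between animals or cultures. No source used here gives the number of animals behind the cells or the culture time of the untreated cells. All 3 treatments were compared with the same untreated arrays, and histamine was applied for a shorter time than the cytokines.

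A synthetase joins one amino acid to its tRNA, and most amino acids have a cytosolic enzyme (gene names ending in 1) and a separate mitochondrial one (ending in 2). GARS1 and KARS1 each make both forms. Serine is made from a glycolytic intermediate by PHGDH, PSAT1 and PSPH in turn, and SHMT1, SHMT2 and MTHFD2 pass its carbon into the folate cycle. In human and mouse cells, shortage of amino acids or stress in the endoplasmic reticulum raises translation of the transcription factor ATF4, which activates many cytosolic synthetase, serine synthesis and amino acid transporter genes. WARS1 and the kinase EIF2AK2 are also known as interferon-induced genes in human cells.

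Values are log2 levels on the array scale, on which 1 unit is a doubling. They have no true zero, and levels of different probe sets are not read as relative amounts of transcript. Array means were 6.79, and arrays of the same group correlated at 0.993 to 0.998 over all probe sets. Group means of the members ran from 5.65 to 11.89, above the lower quartiles of the arrays (5.02 to 5.11). In untreated cells every member except SHMT1, MARS2, LARS2 and CBS was brighter than at least 53.18% of all probe sets. The shares of all probe sets given below include the dimmer ones and were not matched to the members' level. The median SD within a group was 0.0624 for the members and 0.0808 for all probe sets. The mean of 26 measured glycolysis and hypoxia genes was 0.18, 0.21 and 0.23 above the untreated mean on the histamine arrays. Single untreated arrays lay at -0.02 to 0.01. Within the cytokine groups some arrays stood apart on this mean. It was 0.06 above the untreated mean on IL6 repeat 1, and -0.07 and -0.05 from it on IFNα repeats 1 and 2. On IL6 repeats 2 and 3 it was 0.62 and 0.96 above, and on IFNα repeat 3 it was 0.66 above. Without these 3 arrays, all 19 calls of members below were kept, but IL6 is then a single array, assumed to vary like the other groups.

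The log2 difference between the 3′ and 5′ probe sets of the array's EF1A control was -1.89 to -2.15 with IL6, -1.99 to -2.34 with IFNα and -1.78 to -2.05 with histamine, against -1.68 to -1.80 untreated. All IL6 and IFNα arrays lay below all untreated arrays. The GAPDH control ran from 0.06 to 0.23 and the actin control from 0.90 to 1.26 over the 12 arrays. The part of these differences in the members' values was not tested.

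A probe set was called when its limma adjusted p (Benjamini-Hochberg over all probe sets) was under 0.05 and its fold was at least 1.5. After histamine, 9 of 48 members were called higher and 1 lower, or 18.8% and 2.08% of members, beside 2.99% and 2.71% of all probe sets. After IFNα, 3 members were called higher and 1 lower (6.25% and 2.08%), beside 2.18% and 1.18% of all probe sets. After IL6, 0 members were called higher by limma and 1 lower (2.08%), beside 1.44% and 0.949% of all probe sets. At an unadjusted p under 0.05, 12 of 48 members were higher and 14 lower after IL6, beside 3209 and 4247 of 24016 probe sets. The histamine count of members called higher was the one farthest above its background, while each count of members called lower was a single gene.

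At the adjusted p alone, with no fold minimum, 24 members were higher and 9 lower after histamine (50% and 18.8%), beside 15.1% and 16.4% of all probe sets. After IFNα, 6 were higher and 11 lower (12.5% and 22.9%), beside 6.74% and 9.99%. After IL6, 8 were higher and 6 lower (16.7% and 12.5%), beside 6.68% and 10.7%. The median log2 difference of the members was 0.20 after histamine, -0.03 after IFNα and -0.01 after IL6, while that of all probe sets was -0.00, -0.02 and 0.00 in the same 3 comparisons. A limma F test over the 4 groups passed for 40 of 48 members (83.3%), beside 49.1% of all probe sets, dim ones included. It did not pass for HARS1, LARS2, MARS2, TARS2, SHMT1, SHMT2, GOT2 and ATF5. In all, 14 members were called in at least 1 comparison and 34 in none.

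**Figure D1:**
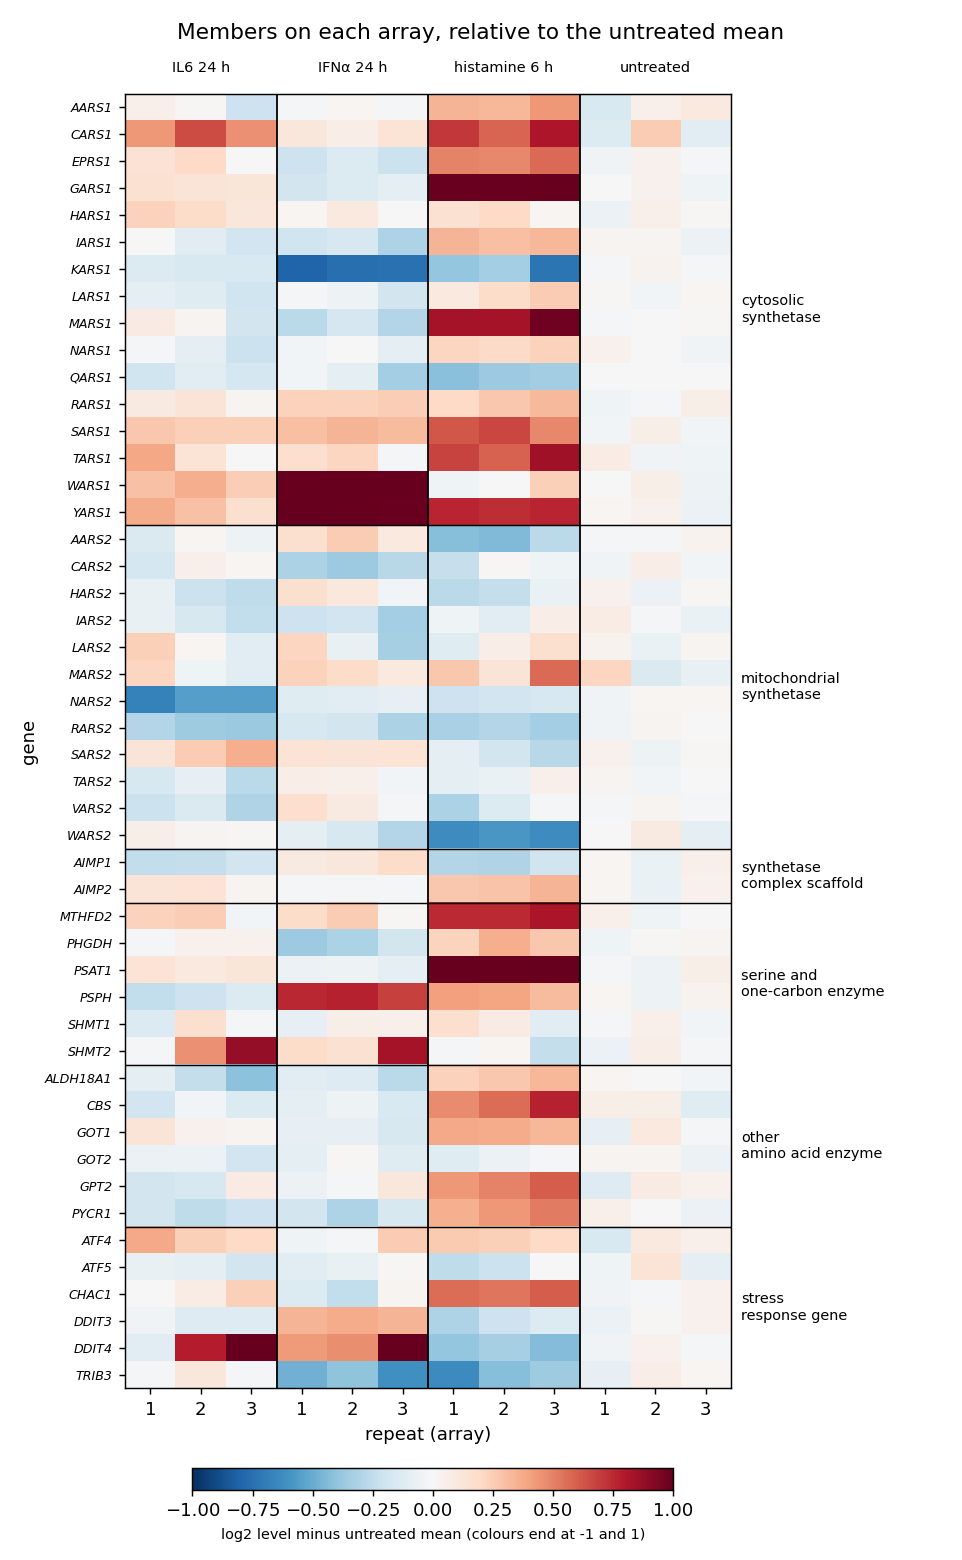
Colour gives the log2 level of each of the 48 members (rows, grouped by role) on each of the 12 arrays (columns, grouped by treatment), relative to that gene's mean on the 3 untreated arrays. Higher values of PSAT1 and most cytosolic synthetases fill the histamine columns, and WARS1, YARS1 and PSPH are higher in the IFNα columns.

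After histamine 12 of the 16 cytosolic members were higher at the adjusted p and none of the 12 mitochondrial members was. Of all probe sets, 15.1% were higher and 16.4% lower at the adjusted p alone, and 2.99% and 2.71% were called. A count of 0 higher among 12 genes lies near that 15.1%. Of the cytosolic synthetases, 6 were called higher and 2 were lower at the adjusted p alone, and their median log2 difference was 0.34. At an unadjusted p under 0.05, 1 of the mitochondrial members was higher, beside 4557 of 24016 probe sets. Of the mitochondrial members, 1 was called lower, 4 were lower at the adjusted p alone, and their median was -0.17. FARS2, a mitochondrial synthetase outside the members, went the other way. It had 6.73, 6.78 and 6.86 with histamine against 6.47, 6.41 and 6.43 untreated, higher by 0.35 (limma adjusted p = 0.00315) with no overlap. No test compared the cytosolic with the mitochondrial enzymes.

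GARS1, the glycyl-tRNA synthetase, had 11.89, 11.89 and 11.90 on the histamine arrays, against 10.90, 10.94 and 10.86 on the untreated arrays. All histamine arrays were higher than all untreated arrays, a 1.99-fold rise (log2 0.99, SE 0.03, limma adjusted p = 1.1e-10). MARS1, the methionyl enzyme that also charges the initiator tRNA, had 9.69, 9.69 and 9.83 with histamine and 8.85, 8.86 and 8.87 without treatment. It rose 1.84-fold (log2 0.88, SE 0.07, limma adjusted p = 2.76e-07), and the arrays did not overlap. A second, dimmer MARS1 probe set gave a log2 difference of 0.52 (limma adjusted p = 0.00528) without a call. On it histamine repeat 3 (6.37) lay within the untreated arrays (6.38, 5.88 and 6.11). YARS1, the tyrosyl enzyme, had 10.21, 10.19 and 10.21 with histamine and 9.47, 9.49 and 9.39 in untreated cells. The groups did not overlap and the rise was 1.69-fold (log2 0.75, SE 0.05, limma adjusted p = 1.19e-07).

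TARS1, the threonyl enzyme, had 10.89, 10.80 and 11.06 on the histamine arrays and 10.29, 10.18 and 10.17 on the untreated ones. The lowest histamine array was above the highest untreated array, with a 1.63-fold rise (SE of the log2 difference 0.09, limma adjusted p = 3.23e-05). CARS1, the cysteinyl enzyme, had 7.39, 7.26 and 7.49 with histamine against 6.54, 6.93 and 6.57 untreated, where repeat 2 was the highest untreated array. Its 1.62-fold rise had a limma adjusted p of 8.83e-05, but its second, dimmer probe set gave a log2 difference of 0.24 (adjusted p = 0.35) and the mean of both probe sets gave 0.47, under the fold minimum. SARS1, the seryl enzyme, had 11.64, 11.69 and 11.50 with histamine and 10.99, 11.08 and 10.99 untreated. Its 1.51-fold rise (limma adjusted p = 2.41e-07) stood just inside the fold minimum and lay under it without histamine repeat 1 or 2 or untreated repeat 1 or 3 (log2 0.55 to 0.58).

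The other cytosolic synthetases that passed the adjusted p alone after histamine were EPRS1, AARS1, IARS1, RARS1, NARS1 and LARS1, with log2 rises of 0.51, 0.37, 0.32, 0.26, 0.21 and 0.18. The other, dimmer NARS1 probe sets gave 0.05 and -0.00, and the second RARS1 probe set gave 0.22. EPRS1, which charges both glutamate and proline tRNAs, had 10.95, 10.93 and 11.02 with histamine against 10.42, 10.50 and 10.44 untreated, with no overlap. KARS1 and QARS1, the lysyl and glutaminyl enzymes, went the other way and were lower by 0.49 and 0.38 on the log2 scale (limma adjusted p = 0.000142 and 0.000312). KARS1 had 10.75, 10.79 and 10.40 on the histamine arrays and 11.12, 11.17 and 11.11 on the untreated arrays, so repeat 3 lay well under the other histamine arrays. WARS1 and HARS1 did not pass the adjusted p after histamine.

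The mitochondrial tryptophanyl synthetase WARS2 was the member called lower after histamine. It had 7.86, 7.91 and 7.86 on the histamine arrays and 8.49, 8.58 and 8.40 on the untreated arrays. The groups did not overlap, and WARS2 fell by 0.61 on the log2 scale (SE 0.06, limma adjusted p = 4.06e-06). Without untreated repeat 2 the difference was -0.57, under the fold minimum. AARS2, RARS2 and NARS2 were lower by 0.38, 0.32 and 0.19 at the adjusted p alone, although the second AARS2 probe set gave 0.06.

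**Figure D2:**
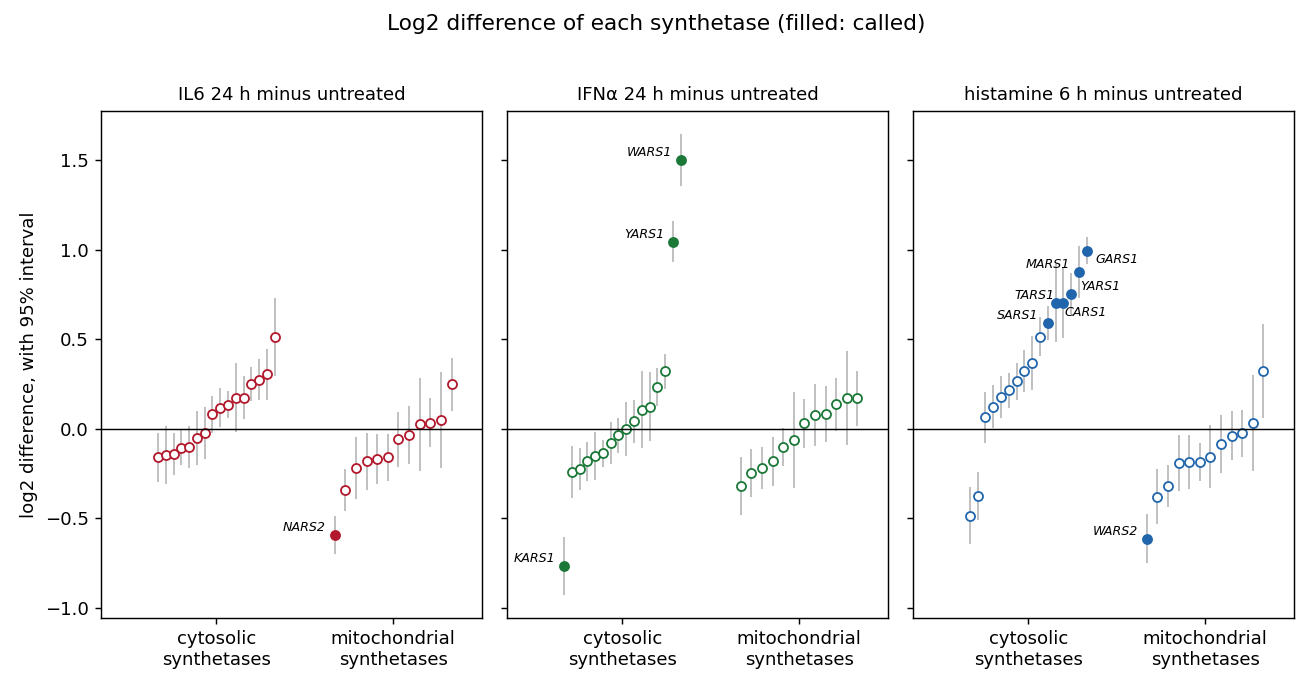
Points give the log2 difference from untreated cells of each of the 16 cytosolic and 12 mitochondrial synthetases, sorted by size, with lines for the 95% interval of the limma fit and filled points for called members. After histamine the cytosolic points run up to 0.99 (GARS1) and the mitochondrial points down to -0.61 (WARS2).

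IFNα called 3 cytosolic synthetases, WARS1 and YARS1 higher and KARS1 lower. At the adjusted p alone 4 were higher and 5 lower of 16, beside 6.74% and 9.99% of all probe sets, with a median log2 difference of -0.02. WARS1, the cytosolic tryptophanyl enzyme, had 11.15, 11.20 and 11.29 on the IFNα arrays and 9.71, 9.77 and 9.66 on the untreated arrays. The IFNα arrays were all higher, and the rise was 2.83-fold (log2 1.5, SE 0.07, limma adjusted p = 3.28e-10). It averaged 11.21 ± 0.07 with IFNα and 9.71 ± 0.06 untreated (SD, n = 3 each). Of 3 other WARS1 probe sets, 2 gave log2 differences of 1.35 and 1.33 and the third gave -0.03.

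YARS1 had 10.53, 10.51 and 10.44 with IFNα against 9.47, 9.49 and 9.39 untreated. It rose 2.06-fold (log2 1.04, SE 0.05, limma adjusted p = 1.77e-09) with no overlap, and it was the only member called higher after both IFNα and histamine. KARS1 had 10.33, 10.38 and 10.39 on the IFNα arrays and 11.12, 11.17 and 11.11 on the untreated arrays. All IFNα arrays were lower, and KARS1 fell by 0.77 on the log2 scale (SE 0.07, limma adjusted p = 2.95e-06). At the adjusted p alone SARS1 and RARS1 were higher by 0.32 and 0.23, and MARS1, IARS1, EPRS1 and GARS1 were lower by 0.24, 0.22, 0.18 and 0.14. The second RARS1 probe set gave 0.14 (limma adjusted p = 0.166) and the second MARS1 probe set -0.07 (limma adjusted p = 0.80). Of the mitochondrial synthetases CARS2, IARS2 and RARS2 were lower at the adjusted p alone, by 0.32, 0.25 and 0.22, although the second CARS2 probe set gave -0.04.

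IL6 called 1 member, the mitochondrial asparaginyl synthetase NARS2, which was lower. It had 8.47, 8.59 and 8.59 on the IL6 arrays and 9.11, 9.16 and 9.16 on the untreated arrays, with no overlap. NARS2 averaged 8.55 ± 0.07 with IL6 and 9.14 ± 0.03 untreated (SD, n = 3 each) and fell by 0.59 on the log2 scale (SE 0.05, limma adjusted p = 1.36e-06). The difference lies next to the fold minimum, and it was -0.55 without IL6 repeat 1 and -0.53 to -0.56 under 3 other scalings of the arrays, which ends the call.

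Among the cytosolic synthetases 6 of 16 were higher after IL6 at the adjusted p alone and 0 lower by limma (3 at an unadjusted p under 0.05), with a median of 0.10. Of all probe sets, 6.68% were higher and 10.7% lower at the adjusted p alone. At an unadjusted p under 0.05, 4247 of 24016 were lower. CARS1 had 7.11, 7.33 and 7.14 on the IL6 arrays and 6.54, 6.93 and 6.57 on the untreated arrays, a log2 rise of 0.51 (limma adjusted p = 0.00289) under the fold minimum. The arrays did not overlap, and the difference was 0.64, past the fold minimum, without untreated repeat 2. The second, dimmer CARS1 probe set gave 0.26 (limma adjusted p = 0.327). YARS1, SARS1, HARS1 and GARS1 were higher by 0.27, 0.25, 0.17 and 0.13. The brightest WARS1 probe set gave 0.30, but its 3 others gave -0.27 (limma adjusted p = 0.0323), 0.09 and -0.20, so its probe sets did not share a direction after IL6. Of the mitochondrial enzymes SARS2 was higher by 0.25 and RARS2 lower by 0.34 at the adjusted p alone. RARS2 passed the adjusted p as lower in all 3 treatments, which share their untreated arrays.

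AIMP1 and AIMP2 are scaffold proteins of the complex that holds several cytosolic synthetases. Neither was called in any comparison. After histamine AIMP2 was higher by 0.30 and AIMP1 lower by 0.26 on the log2 scale, both at the adjusted p alone. After IL6, AIMP1 was lower by 0.23.

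**Figure D3:**
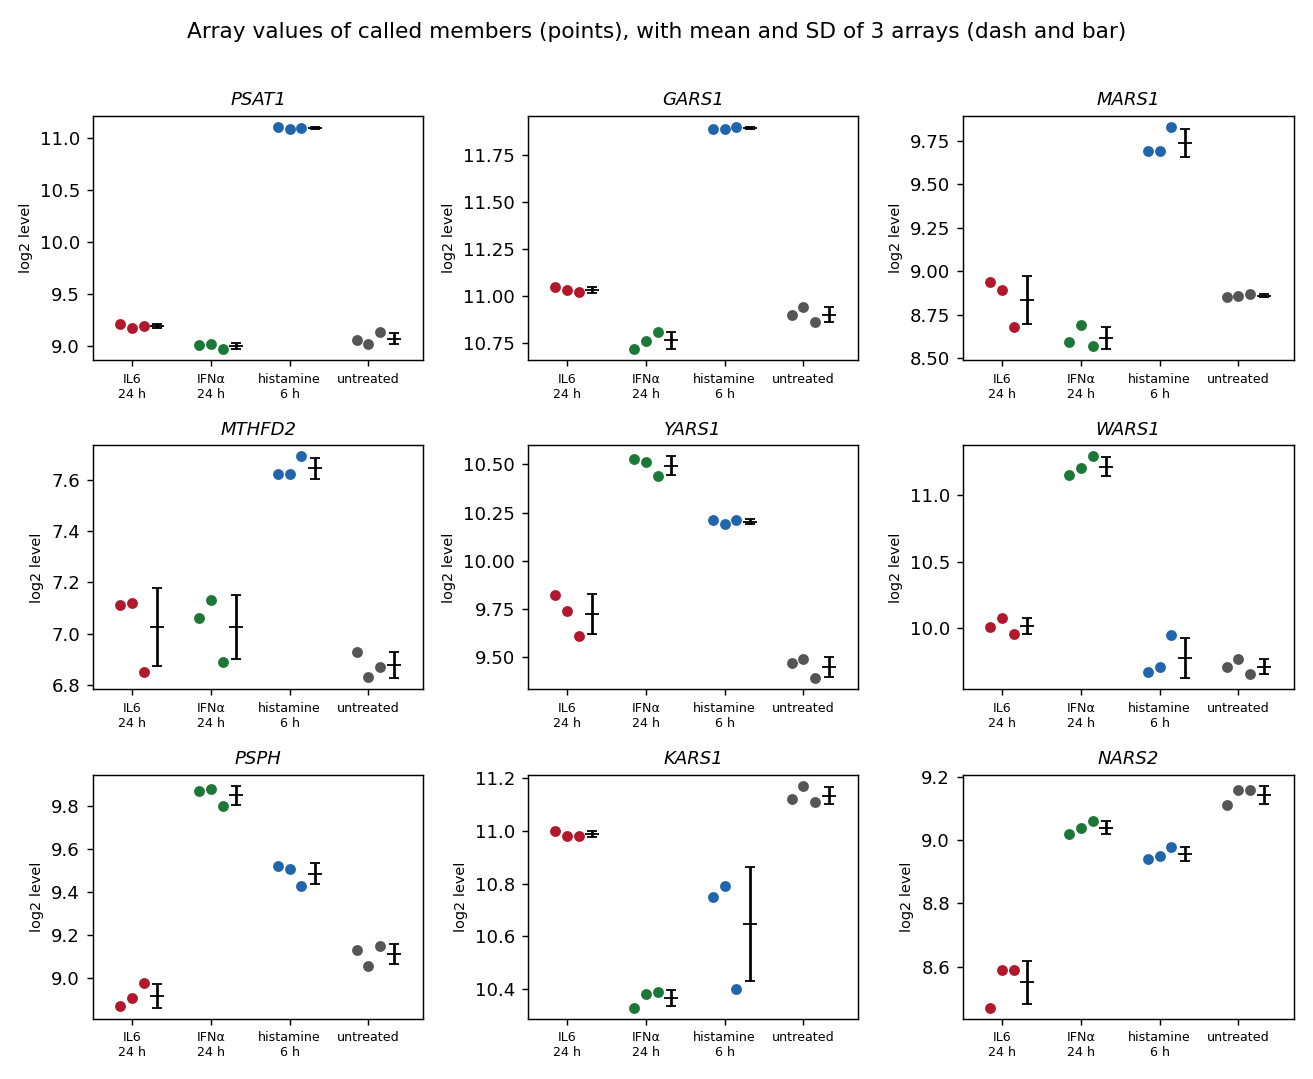
Points give the log2 level of 9 called members on each of the 12 arrays, with the mean and SD of 3 arrays as a dash and bar, and each panel has its own vertical axis that does not start at 0. PSAT1, GARS1, MARS1 and MTHFD2 are highest with histamine, WARS1, YARS1 and PSPH are highest with IFNα, KARS1 is lowest with IFNα and NARS2 is lowest with IL6.

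PSAT1, the aminotransferase of serine synthesis, had the biggest difference of any member in any comparison. It had 11.10, 11.08 and 11.09 on the histamine arrays and 9.06, 9.02 and 9.13 on the untreated arrays. All histamine arrays were higher, by 4.06-fold (log2 2.02, 95% interval 1.93 to 2.11, limma adjusted p = 5.03e-13). The mean was 11.09 ± 0.01 with histamine and 9.07 ± 0.06 untreated (SD, n = 3 each). Both other PSAT1 probe sets were also called, with log2 differences of 1.33 and 1.49, but histamine repeat 3 was far lower on them than repeats 1 and 2 (9.17, 8.98 and 7.18 on one, and 9.00, 8.90 and 7.81 on the other). Untreated arrays had 7.15, 6.99 and 7.21 on the first, so histamine repeat 3 lay within them there. They had 7.12, 7.03 and 7.08 on the second. PSAT1 was called neither after IL6 nor after IFNα.

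PSPH, the phosphatase of the last step, rose 1.67-fold after IFNα. It had 9.87, 9.88 and 9.80 on the IFNα arrays and 9.13, 9.06 and 9.15 on the untreated arrays, with no overlap (log2 0.74, SE 0.05, limma adjusted p = 5.43e-08). Its second probe set gave 0.65. After histamine PSPH had 9.52, 9.51 and 9.43, a log2 rise of 0.37 under the fold minimum (limma adjusted p = 4.81e-05), and after IL6 it was lower by 0.19. PHGDH, the dehydrogenase of the first step, did not follow the same pattern: it was higher by 0.28 after histamine (limma adjusted p = 0.00301) and lower by 0.29 after IFNα (limma adjusted p = 0.0053).

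MTHFD2, a mitochondrial enzyme of the folate cycle, had 7.62, 7.62 and 7.69 with histamine against 6.93, 6.83 and 6.87 untreated. It rose 1.70-fold (log2 0.77, SE 0.08, limma adjusted p = 6.84e-06), with no overlap. Its 3 other probe sets gave log2 differences of 1.07, 0.68 and 0.52, and histamine repeat 3 was the lowest histamine array on each of them. On the probe set at 0.68, histamine repeat 3 had 6.53, within the untreated arrays (6.57, 6.36 and 6.35). Of 7 other probe sets of the members called after histamine, 4 were called the same way and 0 the opposite way. On histamine repeat 3 the 3′ minus 5′ difference of the GAPDH control was 0.23, the highest of the 12 arrays, that of actin was 1.23, and that of EF1A was -1.78. Their part in these results was not tested. SHMT1, the cytosolic serine hydroxymethyltransferase, was not called in any comparison.

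CBS, which joins homocysteine to serine, had 6.85, 6.94 and 7.15 on the histamine arrays and 6.44, 6.44 and 6.26 on the untreated arrays. It rose 1.52-fold (log2 0.60, SE 0.09, limma adjusted p = 8.65e-05), with no overlap. The difference was 0.54 without untreated repeat 3 and 0.52 without histamine repeat 3, under the fold minimum. GPT2, the mitochondrial alanine aminotransferase, had 8.05, 8.11 and 8.22 with histamine against 7.49, 7.70 and 7.66 untreated, a log2 rise of 0.51 (limma adjusted p = 0.000313) without a call. The proline enzymes PYCR1 and ALDH18A1 were higher by 0.44 and 0.28 and the cytosolic aspartate aminotransferase GOT1 by 0.36 after histamine at the adjusted p alone. GOT2, the mitochondrial form, did not pass. So 5 of these 6 enzymes passed the adjusted p after histamine, all higher, beside 15.1% of all probe sets. Their median log2 difference was 0.40. After IL6, ALDH18A1 and PYCR1 were lower by 0.25 and 0.22, and after IFNα PYCR1 was lower by 0.22.

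The 6 stress genes did not move as a group, and none was called by limma in any comparison with untreated cells. At an unadjusted p under 0.05 were 2 of 6 after IL6, 3 after IFNα and 4 after histamine. Of all 24016 probe sets, 7456, 6738 and 9426 were at that p in the same order. After histamine 2 of the stress genes were higher and 2 lower at the adjusted p alone, beside 15.1% and 16.4% of all probe sets. Their median was -0.19. CHAC1, which degrades glutathione, had 7.50, 7.48 and 7.55 on the histamine arrays and 6.91, 6.93 and 6.99 on the untreated arrays, with no overlap. Its log2 rise of 0.57 (limma adjusted p = 7.56e-05) lay just under the fold minimum, and its second probe set was called at 0.59. ATF4 itself had 11.35, 11.33 and 11.29 with histamine against 10.94, 11.19 and 11.14 untreated, a log2 rise of 0.23 (limma adjusted p = 0.031), and after IL6 it was higher by 0.27.

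TRIB3, a pseudokinase known as an ATF4 target, had 7.67, 7.88 and 7.95 with histamine and 8.22, 8.37 and 8.32 untreated, and was lower by 0.47 on the log2 scale (limma adjusted p = 0.000387). After IFNα it had 7.82, 7.90 and 7.69 and was lower by 0.50 (limma adjusted p = 0.000438). TRIB3 was thus below all untreated arrays in both treatments. DDIT3, the transcription factor CHOP, had 9.15, 9.18 and 9.15 on the IFNα arrays and 8.75, 8.82 and 8.85 on the untreated arrays, higher by 0.35 (limma adjusted p = 0.000372). With histamine DDIT3 had 8.50, 8.60 and 8.67 and was lower by 0.22. ATF5, a related transcription factor, did not pass the F test.

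**Figure D4:**
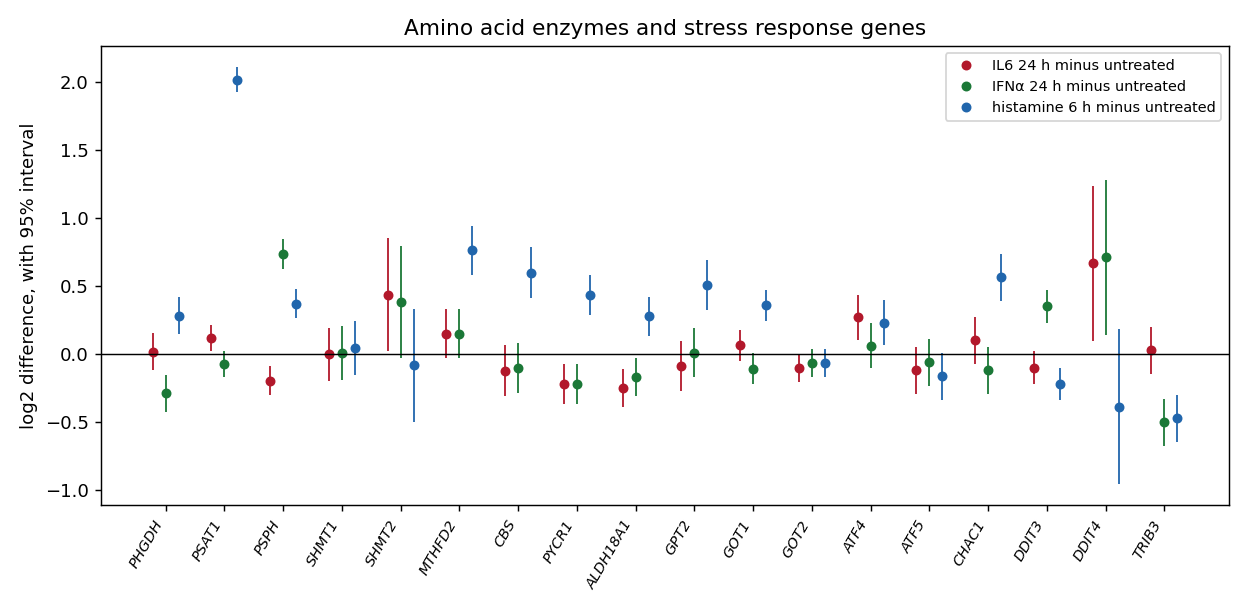
Points give the log2 difference from untreated cells of the 12 amino acid enzymes and 6 stress genes in the IL6, IFNα and histamine comparisons, with lines for the 95% interval of the limma fit. PSAT1 stands at 2.02 after histamine, PSPH at 0.74 after IFNα, and the wide intervals of DDIT4 and SHMT2 cross or approach 0.

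DDIT4, an inhibitor of mTORC1 that is also raised by low oxygen in many cells, varied more between the IL6 arrays than any of the group means did between groups. It had 10.37, 11.26 and 11.80 on the IL6 arrays, 10.90, 10.94 and 11.72 on the IFNα arrays, 10.09, 10.14 and 10.04 on the histamine arrays, and 10.44, 10.52 and 10.46 on the untreated arrays. The log2 differences of 0.67 after IL6 and 0.71 after IFNα did not pass the test (limma adjusted p = 0.102 and 0.0865). Without IL6 repeat 1 both were called, at 1.06 after IL6 (limma adjusted p = 0.00162) and an unchanged 0.71 after IFNα (limma adjusted p = 0.00866). SHMT2, the mitochondrial serine hydroxymethyltransferase, was looked at array by array after its values were seen. It had 8.87, 9.35 and 9.77 with IL6, 9.07, 9.04 and 9.72 with IFNα, 8.87, 8.91 and 8.65 with histamine, and 8.83, 8.96 and 8.88 untreated. Its difference of 0.44 after IL6 (limma adjusted p = 0.136) was 0.67 and called without IL6 repeat 1 (limma adjusted p = 0.0127).

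The high arrays of DDIT4 and SHMT2 were IL6 repeats 2 and 3 and IFNα repeat 3, the same arrays on which the glycolysis and hypoxia genes were high. Without those arrays the DDIT4 difference was -0.10 after IL6, where 1 array is left and has no spread of its own, 0.45 after IFNα (limma adjusted p = 5.72e-06) and -0.38 after histamine (limma adjusted p = 3.93e-06), none of them past the fold minimum. That of SHMT2 was -0.02 after IL6, again from 1 array, and 0.17 after IFNα. Of the 26 glycolysis and hypoxia genes, 6 were called higher after IL6, 4 after histamine and 0 after IFNα by limma. Of all probe sets, 1.44%, 2.99% and 2.18% were. At an unadjusted p under 0.05, 3 of the 26 were higher and 3 lower after IFNα, beside 2683 and 4055 of 24016 probe sets. Without the same arrays, EGLN3 and LDHA stood at 1.00 and 0.61 after IL6, again from 1 array. NDRG1, PFKP, PFKFB3 and P4HA2 stood at 0.54, 0.56, 0.34 and 0.21, under the fold minimum. The histamine calls (P4HA2, PFKFB3, PFKP and TPI1) were each lost with 1 or another single array left out. The part of the 26 genes in the DDIT4 and SHMT2 values was not tested.

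**Figure D5:**
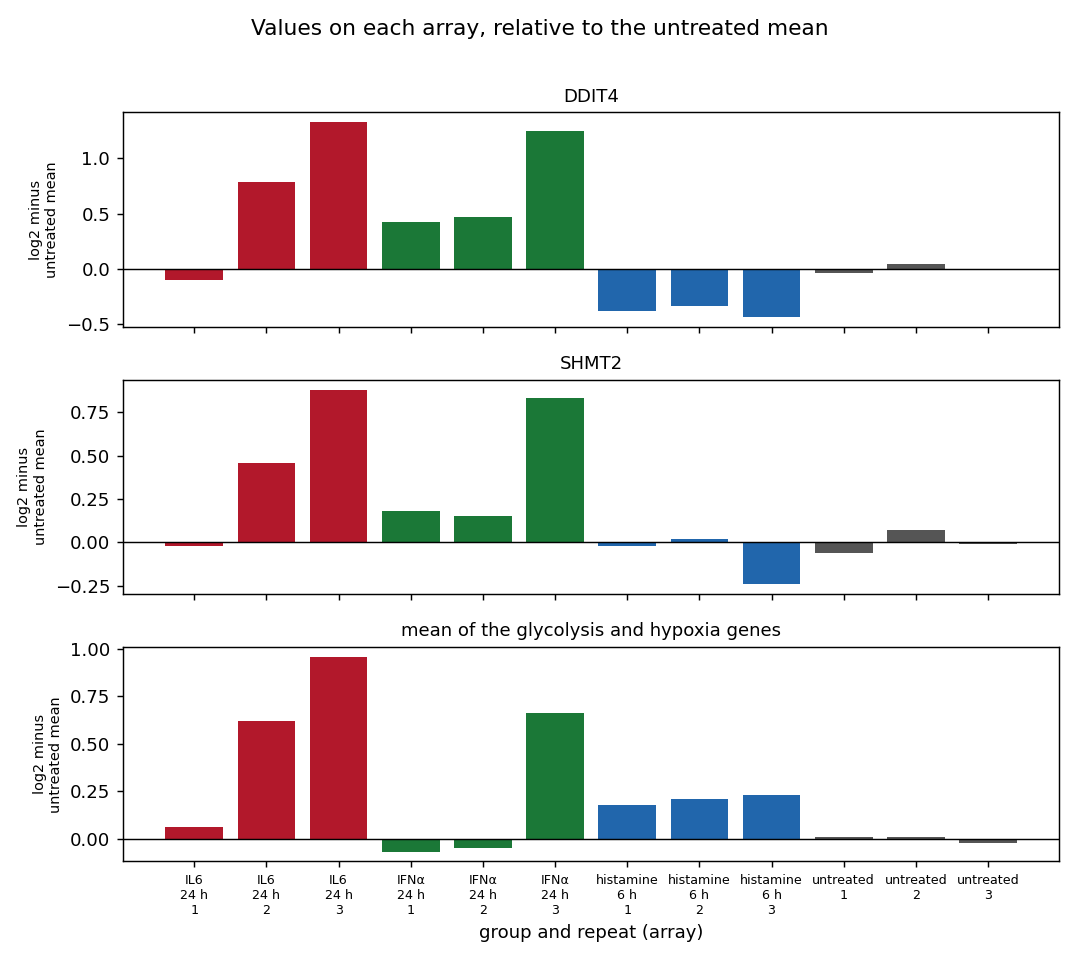
Bars give the log2 value on each of the 12 arrays minus the untreated mean for DDIT4, for SHMT2 and for the mean of 26 glycolysis and hypoxia genes. IL6 repeats 2 and 3 and IFNα repeat 3 are the highest bars in all 3 panels.

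The 2 cytokines were compared directly, since both were applied for 24 h. Between IL6 and IFNα, 1 of 48 members was called higher with IL6 and 3 lower (2.08% and 6.25%), beside 2.82% and 3.29% of all probe sets. At the adjusted p alone 11 were higher and 11 lower (22.9% each), beside 13.7% and 14.8%. The share of members called higher was thus near that of all probe sets. The other shares lay above those of all probe sets, and the share called lower rests on 3 genes.

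WARS1 had 10.01, 10.08 and 9.96 on the IL6 arrays against 11.15, 11.20 and 11.29 on the IFNα arrays, lower with IL6 by 1.2 on the log2 scale (SE 0.07, limma adjusted p = 3.7e-09). PSPH had 8.87, 8.91 and 8.98 with IL6 against 9.87, 9.88 and 9.80 with IFNα, lower by 0.93 (SE 0.05, limma adjusted p = 2.51e-09). YARS1 had 9.82, 9.74 and 9.61 with IL6 against 10.53, 10.51 and 10.44 with IFNα, lower by 0.77 (SE 0.05, limma adjusted p = 4.48e-08). No IL6 array reached an IFNα array for any of these genes. KARS1 was the member called higher with IL6, at 11.00, 10.98 and 10.98 against 10.33, 10.38 and 10.39 with IFNα, a 1.54-fold difference (limma adjusted p = 1.56e-05) with no overlap. Among the rest NARS2 and DDIT3 were lower with IL6 by 0.49 and 0.45, and TRIB3 and CARS1 were higher by 0.53 and 0.41, all at the adjusted p alone.

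Genes that work beside the members were taken from wider pathway lists. Of 19 amino acid transporters 11 were measured, and 5 were called higher after histamine, beside 2.99% of all probe sets. The median log2 difference of the 11 was 0.18. SLC7A5, the light chain of the carrier of leucine and other bulky neutral amino acids, had 9.24, 9.30 and 9.26 on the histamine arrays and 8.20, 8.10 and 8.23 on the untreated arrays. It rose 2.13-fold (limma adjusted p = 3.42e-09), with no overlap. SLC1A5, a carrier of glutamine and small neutral amino acids, rose 2.84-fold, and SLC7A1, SLC1A4 and SLC3A2, the partner chain of SLC7A5, rose 1.76-fold, 1.67-fold and 1.60-fold.

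After IFNα SLC7A5 had 7.21, 7.22 and 7.22 and was the 1 transporter called, lower by 0.96 on the log2 scale (limma adjusted p = 4.45e-09), and it was the only one called in opposite directions by 2 treatments. After IL6 the 1 transporter called was SLC1A5, at 8.18, 8.45 and 8.80 against 7.78, 7.61 and 7.82 untreated (log2 0.74, limma adjusted p = 0.0146). This was 0.58 without IL6 repeat 3 and 0.68 without untreated repeat 2, with limma adjusted p of 0.0674 and 0.0629, and 0.44 without the 3 arrays with high hypoxia genes.

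Of 30 further one-carbon and amino acid enzymes 23 were measured. MTHFD1L, the mitochondrial formate-producing partner of MTHFD2, rose 1.77-fold after histamine (log2 0.82, limma adjusted p = 9.9e-07), and AMT of the glycine cleavage system fell by 0.62 on the log2 scale. The AMT difference was -0.54 without histamine repeat 1 and -0.56 without untreated repeat 2, under the fold minimum. None was called by limma after IL6 (1 higher and 7 lower at an unadjusted p under 0.05) or IFNα (1 higher and 5 lower). At that p, 3209 of 24016 probe sets were higher and 4247 lower after IL6, and 2683 higher and 4055 lower after IFNα. Of 14 further aminoacylation genes 8 were measured. EEF1E1, another scaffold of the synthetase complex, rose 1.52-fold after histamine (limma adjusted p = 1.91e-05), the 1 call in this list against untreated cells, and by 0.52 on the log2 scale, under the fold minimum, without untreated repeat 1.

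Of 25 other genes of the amino acid and integrated stress response 18 were measured, and their medians lay between 0.00 and 0.03 in the 3 treatments. After histamine the very-low-density lipoprotein receptor VLDLR was called higher (log2 1.74) and the stress regulators NUPR1 and ATF3 were lower, by 1.00 and 0.73. After IFNα EIF2AK2, the kinase activated by double-stranded RNA, was higher by 3.41 (SE 0.48), or 10.7-fold, and 16.5-fold without untreated repeat 1, the highest untreated array. NUPR1 and SESN2 were higher by 0.92 and 0.89. ATF3 and the endoplasmic reticulum kinase EIF2AK3 were lower by 0.83 and 0.73 after IFNα. After IL6 VLDLR, ATF3 and NUPR1 were higher by 1.23, 1.07 and 0.65, and NUPR1 by 0.49, under the fold minimum, without IL6 repeat 1. ATF3 and NUPR1 were thus called in opposite directions by IL6 and histamine.

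Between IL6 and IFNα, SLC7A5 and SLC1A5 were higher with IL6 by 1.11 and 0.97 on the log2 scale, as was ASL, the argininosuccinate lyase of arginine synthesis, by 1.00. Of the stress response list 5 genes were called higher with IL6 and 2 lower, beside 2.82% and 3.29% of all probe sets. ATF3, VLDLR and EIF2AK3 were higher by 1.90, 1.05 and 0.86, and EIF2AK2 and SESN2 were lower by 4.06 and 1.29. None of the further aminoacylation genes was called by limma (1 higher at an unadjusted p under 0.05, beside 4691 of 24016 probe sets).

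The mean levels of adrenal cortical and fibroblast markers lay apart from untreated in all 3 treatments. That of chromaffin markers lay apart from untreated only after histamine. Leukocyte markers lay apart after IL6 and histamine, endothelial markers after IL6 and IFNα, and Schwann cell markers after IFNα. The mean level of 10 adrenal cortical markers was 6.49 to 6.54 on the IL6 arrays, 6.33 to 6.40 with IFNα, 7.35 to 7.38 with histamine and 6.93 to 6.96 untreated. Of these 10, 3 were called lower after IL6, 5 lower after IFNα and 2 higher after histamine. The mean of 12 fibroblast markers was 7.53 to 7.59 with IL6, 7.36 to 7.49 with IFNα, 7.95 to 8.02 with histamine and 7.66 to 7.70 untreated. Of these 12, 1 was called higher and 1 lower after IL6, 1 lower after IFNα and 2 higher after histamine. The mean of the 9 measured chromaffin markers was 12.11 to 12.39, 12.29 to 12.60 and 12.65 to 12.79 with IL6, IFNα and histamine, against 12.31 to 12.37 untreated. Of these 9, 3 were called higher after histamine (PNMT, SLC18A2 and SCG2, by 2.29, 0.77 and 0.73 on the log2 scale), and after IL6 SLC18A2 was called higher and PNMT lower. Endothelial markers (11) averaged 5.58 to 5.75 with IL6, 5.56 to 5.58 with IFNα and 5.66 to 5.81 with histamine, against 5.81 to 5.87 untreated. Leukocyte markers (12) averaged 5.80 to 5.89, 5.60 to 5.62 and 5.75 to 5.83 in that order, against 5.60 to 5.67. Schwann cell markers (5) averaged 6.41 to 6.55, 6.24 to 6.36 and 6.40 to 6.43, against 6.42 to 6.50. After IL6, 2 leukocyte markers were called higher, and 1 leukocyte and 1 endothelial marker lower. IFNα called 1 endothelial marker lower. Histamine called 1 leukocyte and 1 endothelial marker higher and 1 endothelial marker lower. Of all probe sets, 1.44% were called higher and 0.949% lower after IL6, 2.18% and 1.18% after IFNα, and 2.99% and 2.71% after histamine. In these bulk samples fewer cells of a type and less RNA per cell cannot be told apart, and the part of these markers in the members' values was not tested.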

How the data were processed

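Total RNA from the cultured cells was labelled with biotin and run on one-colour bovine Affymetrix arrays, according to the labels. The authors deposited log2 levels of 24128 probe sets, computed with RMA per the submitters' processing notes. That method subtracts background, brings arrays to a common distribution and combines the probes of a set, which shrinks differences of dim transcripts. The sources used here give no version of it. Precision is limited by the number of arrays. With 112 control probe sets left out, 24016 were tested without rescaling. Gene names came from the platform annotation, checked by gene identifier against a RefSeq table of cattle genes: 13292 probe sets had 1 symbol, 86 several and 10638 none. Sequences were not used here.

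Tests were run with limma 3.58.1 (R 4.3.3) on a mean per group over all 12 arrays, with moderated variances that follow a trend on mean level. P-values were adjusted by Benjamini-Hochberg over all probe sets, and the procedure was tested on simulated data. Each SD is over 3 arrays, and each SE comes from the fit. Array values are given for every called member, for the 3 biggest differences where fewer than 3 were called, and for other members singled out after their values were seen. Other genes are the up to 6 called genes of a list with the biggest differences in a comparison, described by counts and medians with no set test. The members, lists and tests were chosen with earlier results of these data known.

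Alternatives covered the probe set per gene, scaling, variance model, array weights, filter, fold minimum, samples in the fit, the repeat number as a block and each array left out. Leaving out the 3 arrays with high hypoxia genes was chosen after seeing the data. Figures were drawn with matplotlib 3.10.9.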

Additional observations from a re-analysis of the deposited data

How the results depend on the processing

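No call of a member changed direction under any of the 27 alternatives. Without a fold minimum, 8 members were higher and 6 lower after IL6, 6 higher and 11 lower after IFNα, 24 higher and 9 lower after histamine, and 11 higher and 11 lower between IL6 and IFNα. With a fold of at least 2, limma called 0 lower after IL6, 0 lower after IFNα, 1 higher and 0 lower after histamine, and 0 higher and 1 lower between IL6 and IFNα. Testing against a 1.2-fold change called 2 higher and 5 lower between IL6 and IFNα. After IL6, array weights gave 2 higher (CARS1 and DDIT4) and 0 lower, and median centring, quantile normalization and cyclic loess each gave 0 lower, since NARS2 fell under the fold minimum. The members called higher after IL6 ranged from 0 to 2 with each array left out in turn, those called lower after IL6 from 0 to 1, and those called lower after histamine from 0 to 1. The 2 members gained without IL6 repeat 1 were DDIT4 (1.06) and SHMT2 (0.67), on a log2 scale. CHAC1 was called after histamine under the 3 scalings, with the probe set of largest SD and without untreated repeat 3 (0.59 each). SARS1 was not called after histamine with quantile normalization (0.51) or cyclic loess (0.58), nor CBS with array weights (0.58). DDIT4 was called after IFNα (0.71) with the 2 compared groups alone and without IL6 repeat 1 or 3, which changed the spread estimate and not the value.

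With the repeat number as a replicate block, 1 member was called higher after IL6, DDIT4 at 0.67 (limma adjusted p = 0.043), DDIT4 was also called after IFNα (limma adjusted p = 0.0335), and all 19 other calls were kept. Over all probe sets the block called 600 after IL6 (573 without it), 827 after IFNα (807), 1384 after histamine (1369) and 1473 between IL6 and IFNα (1468). Deviations of same-numbered arrays from their group means correlated at -0.072 to 0.597, with 7 of 18 over 0.1. Those of arrays with different numbers correlated at -0.609 to 0.367, with 3 of 36 over 0.1. The labels do not say what arrays of 1 number share, and the main fit did not pair them. The deposited values hold no measure of background or detection, so how far dim signal limits the members is unknown.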
